A study of Mus musculus with 4 samples.

Results

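Transcripts of 57 genes of DNA replication and S phase were examined in peritoneal macrophages of mice given microcurrent stimulation (MCS) or a control procedure. The genes were listed by what their proteins do: origin licensing and the replicative helicase, the sliding clamp and its loader, the DNA polymerases, nucleotide supply, chromatin copying, G1/S control and fork protection. All 57 were found by symbol among the 15298 genes of the deposited expression values, and no expression filter was used to choose them. The list was chosen by function, but with earlier CPM ratios of these same libraries known, so that the values given here are a description, without a test.

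RNA was sequenced in 4 libraries, 1 from each of the groups Control_ZT2, Control_ZT14, MCS_ZT2 and MCS_ZT14. All groups were female BALB/c mice aged 6 weeks without a genetic alteration named in the labels. MCS mice received a current of 300 µA at 400 Hz for 15 min through pads on the abdomen and back under isoflurane at Zeitgeber time (ZT) 2, counted in hours from lights on. Control mice were handled and anaesthetised alike, with no current applied. The macrophages were collected either at ZT2, immediately after the stimulation, or 12 h later, at ZT14, and were sorted as CD11b+ F4/80+ Ly6G- cells. How many mice each library came from is not stated in the sources used here. With 1 library per condition, no value has a replicate check. The values below come with no test between conditions, except for the count test with additive terms in the closing section. The intervals below, all at 95%, cover counting error only and compare libraries, not conditions.

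The values are CPM, the reads of a gene scaled to a common library size, and all of them were whole numbers of reads within a tolerance of 0.05 read. The recovered reads totaled between 8365590 and 9953243 per library, and 1 read was worth between 0.102 and 0.116 CPM. The members together took between 8641 and 10530 reads. A member had between 31 and 9525 reads over the 4 libraries, with a median of 226, and none was at 0 in any library. The labelled cell type was checked against 8 macrophage marker genes, whose CPM summed to between 25848 and 28203, with none at 0. In such bulk samples, fewer replicating cells and less RNA per replicating cell cannot be told apart.

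DNA replication starts at origins, where the origin recognition complex with *Cdc6* and *Cdt1* loads the MCM helicase. The kinases of the G1/S transition then recruit *Cdc45* and the GINS complex to form the active CMG helicase, and the polymerases copy both strands behind it. Mature macrophages of the peritoneal cavity are mostly quiescent but can renew themselves by local division, and replication genes are transcribed mainly by cells that enter S phase, under the control of E2F factors.

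E2F factors bind a short promoter element, so the members' promoters were searched for it between 250 bases before the transcription start and the start itself. The letters searched on both strands were TTTCCCGC, TTTCGCGC, TTTGCCGC and TTTGGCGC. RefSeq promoters on GRCm38.p6 matched 47 of the 57 members, and 10 of these 47 (21.3%) held an E2F element. The element was found in 3.57% of 11487 genes of the expression table with a promoter and in 1.86% of all 32851 promoters. These 10 members were *Cdc6*, *Dnmt1*, *Gins3*, *Mcm5*, *Mcm6*, *Mcm7*, *Orc1*, *Pola1*, *Rfc3* and *Uhrf1*. The CCAAT box (CCAAT) was present in 28 of the 47 members (59.6%) and in 39.8% of the genes of the table. The cell cycle homology region (TTTGAA) was present in 9 of the 47 members (19.1%) and in 13.2% of the genes of the table. A match to these letters is a description and does not show that a factor binds.

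Windows of 60 bases are printed for the E2F elements of the licensing and helicase genes, of *Pola1* and of *Uhrf1*, and for *Chaf1a*, whose window shows a CCAAT box. They read from 5′ to 3′ on the strand of the gene, and capitals mark the element. The windows of *Mcm5*, *Mcm6*, *Pola1* and *Chaf1a* lie outside the annotated gene, upstream of it. The windows of *Orc1* and *Gins3* touch an exon of the gene itself, that of *Cdc6* lies in an intron of *Cdc6*, that of *Uhrf1* lies in an intron upstream of an alternative start, and that of *Mcm7* touches exons of *Mcm7* and of the neighbouring *Ap4m1*. The E2F elements ended 146 bases before the RefSeq start in *Mcm5*, 103 and 40 bases before it in the windows of *Mcm6*, 158 in *Mcm7*, 20 in *Orc1*, 131 in *Cdc6* and in *Pola1*, 34 in *Gins3* and 178 in *Uhrf1*. In *Mcm5* and in the distal window of *Mcm6*, an element on each strand overlaps the other and the capitals cover both.
Mcm5, chr8:75109330-75109389, + strand: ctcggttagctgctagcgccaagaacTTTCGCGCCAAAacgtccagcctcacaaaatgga
Mcm6 distal, chr1:128359782-128359841, - strand: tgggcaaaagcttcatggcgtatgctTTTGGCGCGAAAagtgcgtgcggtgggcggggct
Mcm6 proximal, chr1:128359719-128359778, - strand: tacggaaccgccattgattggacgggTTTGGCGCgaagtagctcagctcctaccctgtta
Mcm7, chr5:138172015-138172074, - strand: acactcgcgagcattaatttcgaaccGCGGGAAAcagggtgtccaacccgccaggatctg
Orc1, chr4:108579394-108579453, + strand: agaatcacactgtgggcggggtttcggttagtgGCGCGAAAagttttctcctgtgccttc
Cdc6, chr11:98907987-98908046, + strand: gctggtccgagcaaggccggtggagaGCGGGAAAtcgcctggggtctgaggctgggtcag
Gins3, chr8:95633492-95633551, + strand: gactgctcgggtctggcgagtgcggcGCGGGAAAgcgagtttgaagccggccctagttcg
Pola1, chrX:93632260-93632319, - strand: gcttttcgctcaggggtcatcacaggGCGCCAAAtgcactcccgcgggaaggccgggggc
Uhrf1, chr17:56304102-56304161, + strand: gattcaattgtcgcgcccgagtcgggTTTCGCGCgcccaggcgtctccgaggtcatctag
Chaf1a, chr17:56040308-56040367, + strand: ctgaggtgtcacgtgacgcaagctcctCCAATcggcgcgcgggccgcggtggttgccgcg

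Across the 4 libraries, the control library at ZT14 stood lowest for most members and the MCS library at ZT14 stood highest for many. Of 56 members with a log2 mean CPM above 0 over the 4 libraries, 33 (58.9%) had their lowest value in control at ZT14, against 23% of the 12511 genes past the same minimum. The highest value lay in MCS at ZT14 for 26 of the 56 (46.4%), against 31.2% of those genes. Only *Gins1* averaged under 1 CPM. The members summed to 1041 CPM in control at ZT2, 949 CPM in control at ZT14, 1064 CPM in the MCS library at ZT2 and 1077 CPM in that at ZT14.

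**Figure D1:**
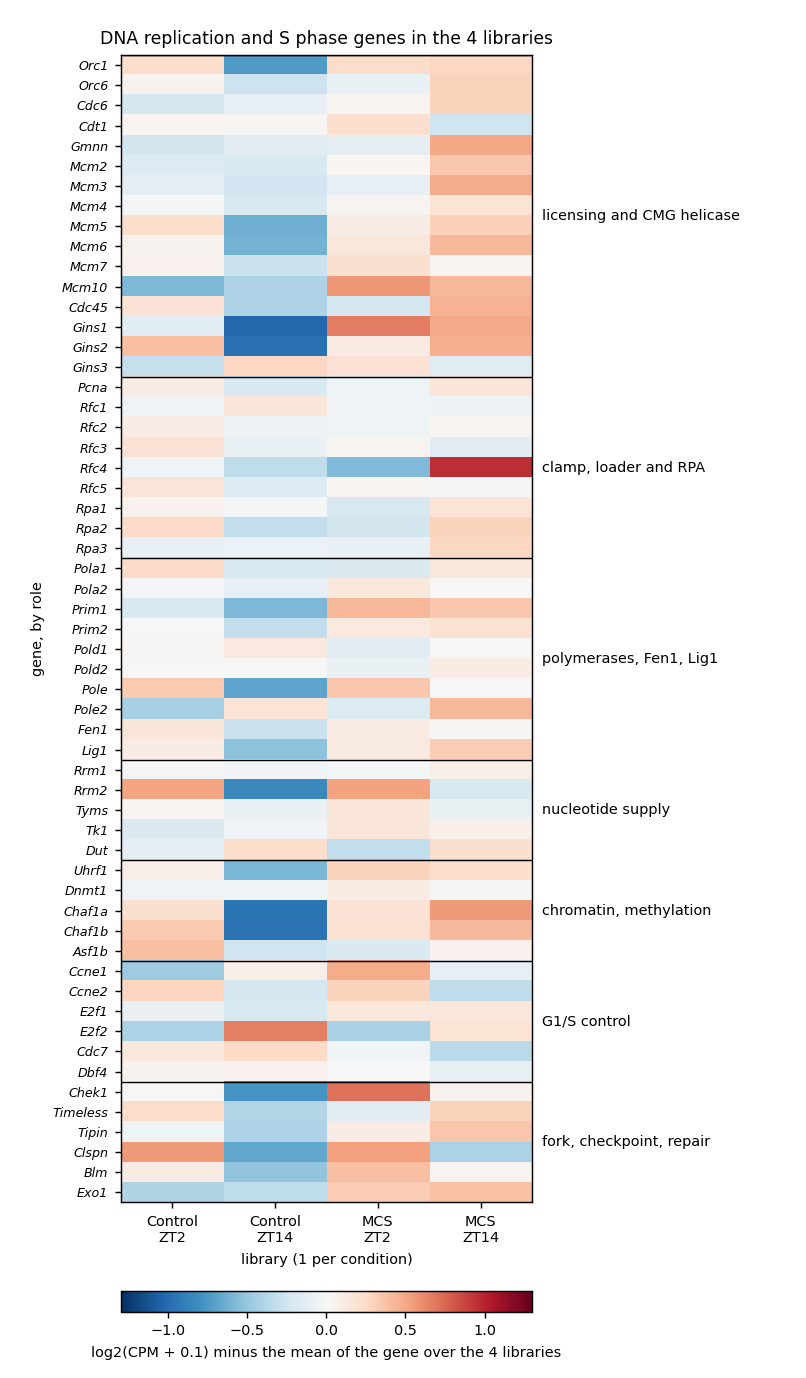
Colour map of the 57 members (vertical axis, ordered by role) in the 4 libraries (horizontal axis), as log2(CPM + 0.1) minus the member's mean over the libraries. Blue cells gather in the control ZT14 column, where 33 of 56 members past the minimum were lowest, and *E2f2* shows the opposite there.

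MCS was compared with control at ZT14, 12 h after the stimulation. With 1 library of each, a treatment effect cannot be told apart from a difference between libraries. Log2 ratios were computed after adding 0.1 CPM, and a member was counted as past the fold criterion of the study where its log2 ratio was above 1 or below -1 and its log2 mean CPM was above 0. In all, 45 members had a ratio above 0 and 12 below 0, and the median log2 ratio of the 56 past the minimum was 0.35, against 0.004 over all genes. A log2 ratio above 1 was found for 6 members, against 1.84% of 12368 genes, and a ratio below -1 for 0 members, against 1.57%. The 6 were *Chaf1a*, *Gins2*, *Chaf1b*, *Rfc4*, *Mcm6* and *Orc1*. The counting interval lay above no change for 21 of 56 members, against 18.7% of genes, and below it for 3, against 18.9%. It included no change for the other 32.

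The same comparison at ZT2, immediately after the stimulation, gave 33 members above 0 and 24 below, with a median log2 ratio of 0.01. A log2 ratio above 1 was found for 1 of 56 members, *Mcm10*, against 1.44% of 12612 genes, and below -1 for 0, against 0.769%. The counting interval lay above no change for 3 members, against 11.5% of genes, and below it for 3, against 11%. The MCS ratio was larger at ZT14 than at ZT2 for 43 members and smaller for 14, with a median difference of 0.31 on the log2 scale. This difference between times was not tested, since 1 library per condition leaves no replicate for it.

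Within control mice, ZT2 was compared with ZT14 to describe the time of day. At ZT2 the members were above ZT14 in 41 cases and below in 16, with a median log2 ratio of 0.27. A log2 ratio above 1 was found for 6 of 56 members, against 2.42% of 12465 genes, and below -1 for 1, *E2f2*, against 1.19%. The counting interval lay above no change for 16 members, against 13.6% of genes, and below it for 2, against 15.9%. Both this comparison and MCS against control at ZT14 use the control library at ZT14, so they are not independent and their values are given side by side.

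Within MCS mice, the members were near balance between the times, with 25 above 0 and 32 below for ZT2 against ZT14 and a median log2 ratio of -0.07. A log2 ratio above 1 was found for 0 of 57 members, against 3.96% of 12534 genes, and below -1 for 1, *Rfc4*, against 1.87%. The counting interval lay above no change for 4 members, against 21.9% of genes, and below it for 8, against 22.2%.

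**Figure D2:**
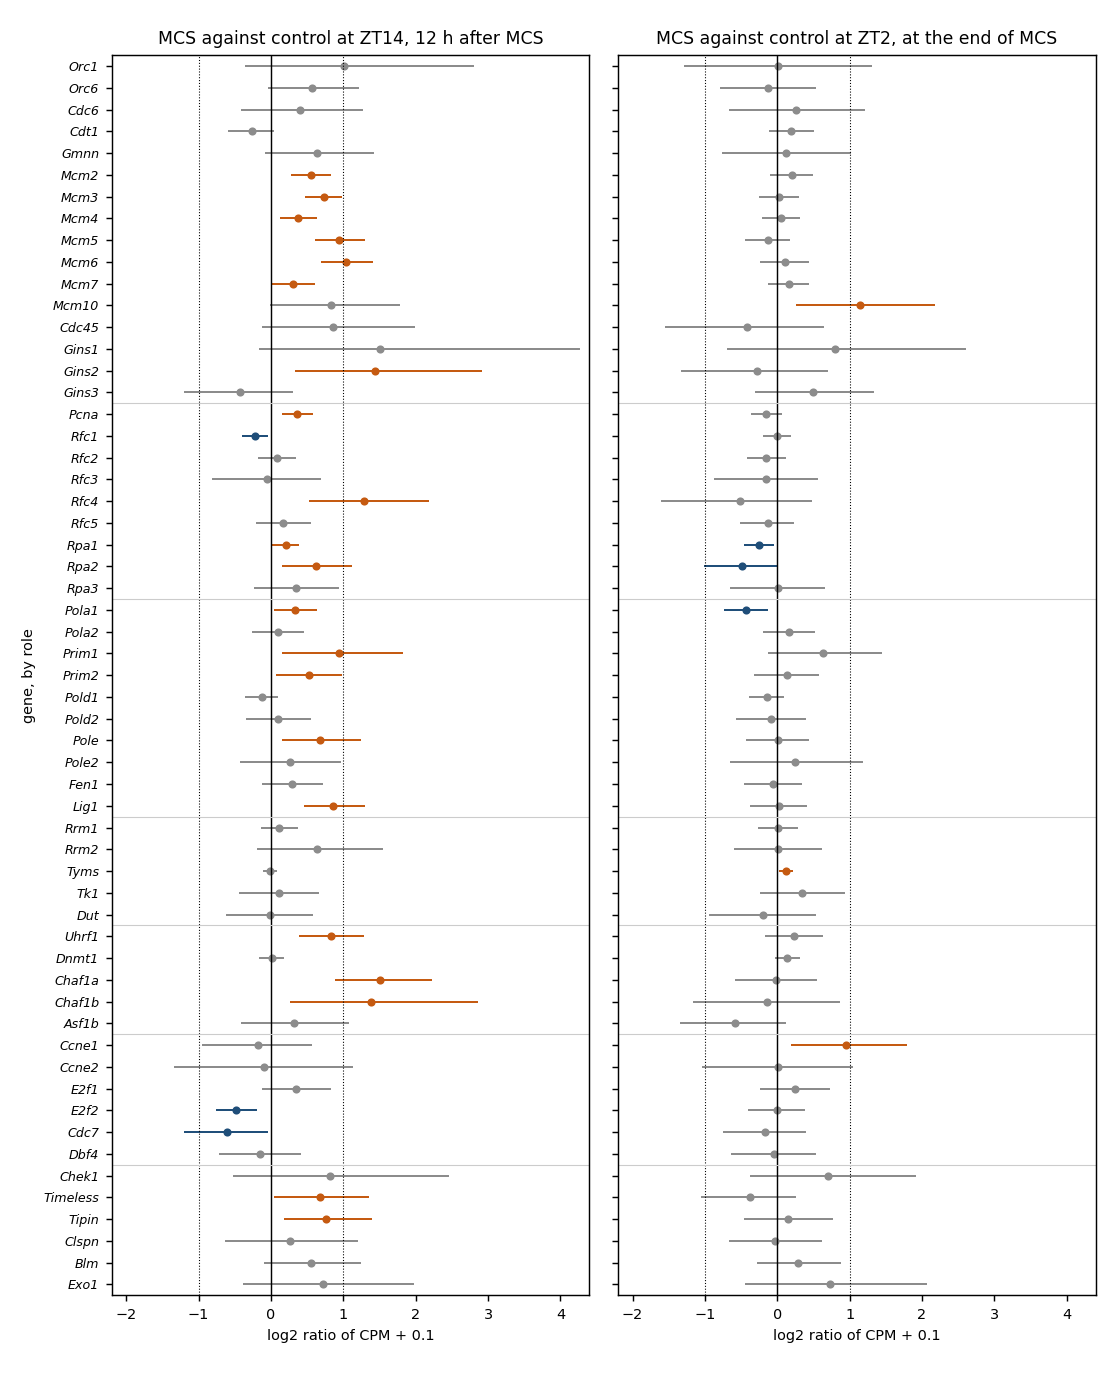
Log2 ratio of MCS to control (horizontal axes) for each member by role (vertical axis), at ZT14 on the left and at ZT2 on the right, with lines for the 95% counting interval and dotted lines at a log2 ratio of 1 and -1. Intervals above no change are orange and those below it are blue, 21 and 3 at ZT14 and 3 and 3 at ZT2.

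The origin licensing and helicase genes had a median log2 MCS ratio at ZT14 of 0.64. The smaller chromatin and fork protection groups had higher medians, of 0.83 and 0.70. Of 15 past the minimum, 7 had an interval above no change (18.7% of all genes) and 0 below (18.9%). These 7 were all 6 subunits of the MCM ring and *Gins2*. The control library at ZT14 was lowest for 10 of the 15 (23% of all genes), and MCS at ZT14 was highest for 11 (31.2%).

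*Mcm2* to *Mcm7* encode the ring that unwinds DNA, and their reads were summed as 1 complex. The summed level was 148 CPM in control at ZT2, 119 CPM in control at ZT14, 155 CPM in the MCS library at ZT2 and 183 CPM in that at ZT14. For this sum, the log2 MCS ratio was 0.62 (0.51 to 0.73) at ZT14 and 0.07 (-0.04 to 0.18) at ZT2. In control, ZT2 was above ZT14 by a log2 ratio of 0.31 (0.19 to 0.43), while in MCS it was -0.24 (-0.34 to -0.14).

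The subunits reached this sum in different ways. *Mcm6* stood at 17.9 CPM in control at ZT2, 11.3 CPM in control at ZT14, 19.3 CPM in the MCS library at ZT2 and 23.3 CPM in that at ZT14. Its log2 MCS ratio at ZT14 was 1.04 (0.70 to 1.39). *Mcm5* stood at 23.6, 13.0, 21.5 and 25.1 CPM in the same order, with a log2 MCS ratio at ZT14 of 0.95 (0.63 to 1.28). For both, the control library at ZT14 was the low one and the other 3 were higher. The log2 ratios of ZT2 to ZT14 in control were 0.66 (0.29 to 1.04) for *Mcm6* and 0.86 (0.53 to 1.20) for *Mcm5*. Both hold overlapping E2F elements printed above. *Mcm7*, with a log2 MCS ratio at ZT14 of 0.30, also holds an element, and *Mcm3*, at 0.73, was not among the members with one. A link between the elements and the ratios was not tested.

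*Mcm3* and *Mcm2* differed from that pattern, since the MCS library at ZT14 was the high one. *Mcm3* stood at 27.0 CPM in control at ZT2, 24.9 CPM in control at ZT14, 27.5 CPM in the MCS library at ZT2 and 41.3 CPM in that at ZT14. At ZT14 the log2 MCS ratio was 0.73 (0.49 to 0.97), and its log2 ratio of ZT2 to ZT14 was 0.12 (-0.15 to 0.39) in control and -0.59 (-0.82 to -0.35) in MCS. *Mcm2* stood at 22.6, 22.2, 26.0 and 32.6 CPM in the same order. Its log2 MCS ratio at ZT14 was 0.55 (0.30 to 0.82).

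*Mcm4*, which had the most reads of the role group, and *Mcm7* had the smallest MCS ratios of the ring. *Mcm4* stood at 31.4, 27.6, 32.6 and 35.8 CPM, with a log2 ratio at ZT14 of 0.38 (0.14 to 0.62). *Mcm7* stood at 25.1, 19.9, 28.0 and 24.5 CPM, with a log2 ratio of 0.30 (0.02 to 0.59). A processed pseudogene alike to *Mcm7* over 2157 bases at 97.7% identity could share its reads and is not in the table.

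**Figure D3:**
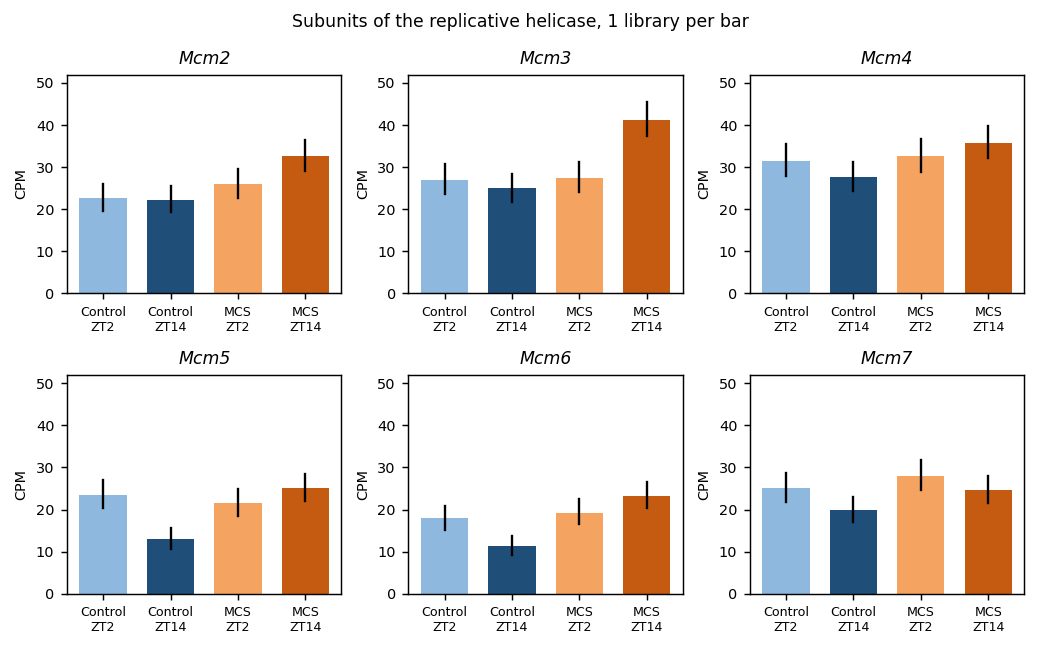
Level of the 6 MCM ring subunits in CPM (vertical axes, from 0) in each library (horizontal axes), with 1 library per bar and lines for the 95% Poisson counting interval. *Mcm5* and *Mcm6* are lowest in control at ZT14, at 13.0 and 11.3 CPM, and *Mcm3* is highest in MCS at ZT14, at 41.3 CPM.

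The members that join the ring were less abundant than its subunits. *Gins4*, a GINS subunit that is not among the members, stood at 12.7 CPM in control at ZT2 and 13.1 CPM in control at ZT14. It stood at 16.2 CPM in the MCS library at ZT2 and 15.6 CPM in that at ZT14. Its log2 MCS ratio at ZT14 was 0.26 (-0.10 to 0.62). *Gins2*, a GINS subunit, stood at 2.43 CPM in control at ZT2, 0.879 CPM in control at ZT14, 1.97 CPM in the MCS library at ZT2 and 2.56 CPM in that at ZT14. The control library at ZT14 was the low one, with 8 reads, and the log2 MCS ratio at ZT14 was 1.44 (0.35 to 2.90). *Gse1*, on the opposite strand, covers 67.3% of the exon bases of *Gins2*, and its own log2 MCS ratio at ZT14 was -0.34 (-0.45 to -0.23). Whether strand was used in counting is not stated in the sources used here, and reads of *Gins2* and *Gse1* may not be separable.

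*Gins1*, the other GINS subunit of low level, stood at 0.693, 0.330, 1.28 and 1.12 CPM, with only 3 reads in control at ZT14. Its log2 ratio at ZT14 had the wide interval of -0.15 to 4.25. *Gins3*, whose window printed above also holds an E2F element, did not share this order and stood at 2.77, 4.17, 3.94 and 3.07 CPM, with a log2 ratio at ZT14 of -0.43 (-1.19 to 0.28). Summed over *Gins1* to *Gins3*, the libraries held between 49 and 66 reads.

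*Mcm10*, which helps to activate the loaded helicase, stood at 1.73 CPM in control at ZT2, 1.98 CPM in control at ZT14, 3.94 CPM in the MCS library at ZT2 and 3.58 CPM in that at ZT14. Both MCS libraries were above both control libraries. The log2 MCS ratio was 1.14 (0.27 to 2.17) at ZT2, and at ZT14 it was 0.82 with an interval that reached no change. *Cdc45*, the helicase cofactor, stood at 2.19, 1.43, 1.62 and 2.66 CPM, with a log2 ratio at ZT14 of 0.85 (-0.12 to 1.98).

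Among the loading factors, no interval at ZT14 excluded no change. *Orc1*, the largest subunit of the origin recognition complex, stood at 1.39, 0.659, 1.39 and 1.43 CPM, and its log2 ratio of 1.01 (-0.35 to 2.79) rested on 6 reads in control at ZT14. *Cdt1*, which brings the ring to origins, stood at 21.3, 21.1, 24.4 and 17.5 CPM. It was highest in MCS at ZT2 and lowest in MCS at ZT14, with a log2 ratio between these times of 0.48 (0.18 to 0.78). *Gmnn*, the inhibitor of *Cdt1*, stood at 2.66, 2.86, 2.90 and 4.50 CPM, with a log2 MCS ratio at ZT14 of 0.64 (-0.08 to 1.41). The log2 MCS ratios at ZT14 were 0.57 for *Orc6* and 0.40 for *Cdc6*, both with intervals that included no change.

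The clamp, its loader and the single-stranded DNA binding protein had a median log2 MCS ratio at ZT14 of 0.20 over 9 genes. Of these, 4 had an interval above no change (18.7% of all genes) and 1 below (18.9%). *Pcna*, the sliding clamp, stood at 48.5 CPM in control at ZT2, 39.4 CPM in control at ZT14, 43.7 CPM in the MCS library at ZT2 and 50.6 CPM in that at ZT14. The control library at ZT14 was lowest, and the log2 MCS ratio there was 0.36 (0.16 to 0.56). A processed pseudogene is alike to *Pcna* over 781 bases at 99.2% identity.

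The clamp loader genes differed among themselves. *Rfc1*, the large subunit and the most read gene of this role group, stood at 58.4, 67.4, 58.5 and 57.9 CPM. It was highest in control at ZT14, with a log2 MCS ratio at ZT14 of -0.22 (-0.39 to -0.05). *Rfc4*, a small subunit, stood at 2.54, 2.09, 1.74 and 5.21 CPM. It was high only in MCS at ZT14 among the 4 libraries, and the log2 ratio to control there was 1.28 (0.54 to 2.16). *Eif4a2*, on the opposite strand of 12.7% of the exon bases of *Rfc4*, had a log2 ratio of 0.10 (0.03 to 0.18) in the same comparison. *Rfc2*, *Rfc3* and *Rfc5* had log2 ratios between -0.06 and 0.17, and the sum over *Rfc1* to *Rfc5* gave -0.04 (-0.17 to 0.08).

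*Rpa1* and *Rpa2*, subunits of the protein that coats single-stranded DNA, had opposite MCS ratios at the 2 times. *Rpa1* stood at 55.9 CPM in control at ZT2, 53.3 CPM in control at ZT14, 46.8 CPM in the MCS library at ZT2 and 61.2 CPM in that at ZT14. Its log2 MCS ratio was -0.26 (-0.45 to -0.06) at ZT2 and 0.20 (0.03 to 0.38) at ZT14. *Rpa2* stood at 10.2, 6.81, 7.19 and 10.5 CPM, and its log2 MCS ratio was -0.49 (-0.99 to -0.01) at ZT2 and 0.62 (0.16 to 1.11) at ZT14. *Rpa3* stood between 4.97 and 6.44 CPM in the 4 libraries.

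The polymerase genes had a median log2 MCS ratio at ZT14 of 0.31 over 10 members. Of these, 5 had an interval above no change (18.7% of all genes) and 0 below (18.9%). *Prim1*, the catalytic primase subunit that starts each new strand, stood at 2.89 CPM in control at ZT2, 2.20 CPM in control at ZT14, 4.52 CPM in the MCS library at ZT2 and 4.29 CPM in that at ZT14. With MCS, the log2 ratio to control at ZT14 was 0.94 (0.17 to 1.81). The partner subunit *Prim2* stood at 10.05, 8.02, 11.02 and 11.6 CPM, with a log2 ratio at ZT14 of 0.52 (0.09 to 0.97). For both primase genes, both MCS libraries were above both control libraries.

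*Pola1*, the catalytic subunit of polymerase alpha, had another order. It stood at 26.4, 19.4, 19.6 and 24.5 CPM, so that control at ZT2 and MCS at ZT14 were the high libraries. Its log2 MCS ratio was -0.43 (-0.73 to -0.14) at ZT2 and 0.33 (0.05 to 0.62) at ZT14. *Pola2* stood between 14.6 and 17.3 CPM. Summed over *Pola1*, *Pola2*, *Prim1* and *Prim2*, the level was 54.9, 44.3, 52.4 and 56.0 CPM.

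*Pole*, the catalytic subunit of the leading strand polymerase, was lowest in control at ZT14. It stood at 11.1 CPM in control at ZT2, 5.38 CPM in control at ZT14, 11.1 CPM in the MCS library at ZT2 and 8.69 CPM in that at ZT14. The log2 ratio was 0.68 (0.17 to 1.23) for MCS against control at ZT14 and 1.03 (0.53 to 1.57) for ZT2 against ZT14 in control. *Pold1*, the catalytic subunit of the lagging strand polymerase and the most read of the polymerase group, stood between 33.9 and 40.4 CPM, and its log2 MCS ratio at ZT14 was -0.13 (-0.34 to 0.09).

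*Lig1*, the ligase that joins Okazaki fragments, stood at 13.3, 8.57, 13.5 and 15.6 CPM. The control library at ZT14 was low, and the log2 MCS ratio there was 0.86 (0.47 to 1.28). *Fen1*, the flap nuclease, stood at 13.6, 9.996, 13.1 and 12.3 CPM, with a log2 MCS ratio at ZT14 of 0.29 (-0.11 to 0.70). An antisense transcript that is not in the table covers 78.8% of the exon bases of *Fen1*. *Pole2* and *Pold2* had log2 ratios at ZT14 of 0.26 and 0.10, both with intervals that included no change.

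Of the 5 nucleotide supply genes, none had an interval off no change for MCS against control at ZT14, and the median log2 ratio was 0.11. Over all genes, the interval lay above no change for 18.7% and below it for 18.9%. *Tyms*, which makes thymidylate, was the most read member of all. It stood at 269 CPM in control at ZT2, 249 CPM in control at ZT14, 293 CPM in the MCS library at ZT2 and 246 CPM in that at ZT14. The log2 MCS ratio was -0.02 (-0.10 to 0.07) at ZT14 and 0.12 (0.04 to 0.21) at ZT2. A *Tyms* transcript holds stretches alike to transcripts of several unrelated genes, so part of its reads may be shared. Without *Tyms*, the members summed to 772, 700, 771 and 831 CPM. MCS at ZT14 was highest, as it also was with *Tyms* included.

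*Rrm2*, the S phase subunit of ribonucleotide reductase, was higher at ZT2 than at ZT14 in both treatments. It stood at 5.77 CPM in control at ZT2, 2.20 CPM in control at ZT14, 5.80 CPM in the MCS library at ZT2 and 3.48 CPM in that at ZT14. The log2 ratio of ZT2 to ZT14 was 1.35 (0.62 to 2.22) in control and 0.72 (0.08 to 1.41) in MCS. Its partner *Rrm1* stood between 28.6 and 31.0 CPM. *Tk1* and *Dut* had log2 MCS ratios at ZT14 of 0.11 and -0.02, with intervals that included no change.

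The chromatin genes had a median log2 MCS ratio at ZT14 of 0.83 over 5 members. Of these, 3 had an interval above no change (18.7% of all genes) and 0 below (18.9%). *Chaf1a*, the large subunit of the chromatin assembly factor that places histones on new DNA, had the highest ratio of the members past the minimum. It stood at 6.70 CPM in control at ZT2, 2.97 CPM in control at ZT14, 6.61 CPM in the MCS library at ZT2 and 8.59 CPM in that at ZT14. The log2 ratio was 1.5 (0.89 to 2.22) for MCS against control at ZT14 and -0.02 (-0.57 to 0.53) at ZT2. Its reads may include some of *Ubxn6*, which covers 52.5% of its exon bases on the opposite strand and had a log2 ratio at ZT14 of -0.08 (-0.31 to 0.16).

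The partner subunit *Chaf1b* stood at 2.31, 0.879, 2.09 and 2.45 CPM, with 8 reads in control at ZT14. Its log2 MCS ratio at ZT14 was 1.38 (0.28 to 2.85). For both subunits, the control library at ZT14 stood apart below the other 3, and their reads summed to 35 there against 75 to 108 in the others. *Uhrf1*, which brings the methyltransferase to new DNA, stood at 12.2, 7.69, 14.4 and 13.7 CPM, with a log2 ratio at ZT14 of 0.83 (0.41 to 1.27). The methyltransferase gene *Dnmt1*, the most read of the group, did not show this, at 72.6, 73.0, 80.0 and 73.4 CPM and a log2 ratio at ZT14 of 0.01 (-0.15 to 0.16). *Asf1b*, a histone chaperone, stood at 5.08, 3.19, 3.36 and 3.99 CPM. A processed pseudogene is alike to *Uhrf1* over 1590 bases at 98.3% identity and could share its reads.

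Of the G1/S control genes, 1 of 6 was above 0 for MCS against control at ZT14, with a median log2 ratio of -0.17. The interval lay above no change for 0 (18.7% of all genes) and below it for 2 (18.9%). It included no change for the other 4. *E2f2*, an E2F factor and the most read of the group, stood at 13.9 CPM in control at ZT2, 29.2 CPM in control at ZT14, 13.8 CPM in the MCS library at ZT2 and 21.0 CPM in that at ZT14. Both ZT14 libraries were above both ZT2 libraries, and control at ZT14 was the highest. The log2 ratio of ZT2 to ZT14 was -1.07 (-1.40 to -0.76) in control and -0.60 (-0.94 to -0.27) in MCS, and that of MCS to control at ZT14 was -0.48 (-0.75 to -0.21). *E2f1* stood at 8.32, 7.69, 9.86 and 9.82 CPM, with an interval at ZT14 that included no change.

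*Cdc7*, the kinase that fires origins, stood at 6.81, 7.36, 6.03 and 4.81 CPM. It was lowest in MCS at ZT14, with a log2 MCS ratio there of -0.60 (-1.18 to -0.06). Its activating subunit *Dbf4* stood between 5.73 and 6.37 CPM. *Ccne1*, the G1/S cyclin, stood at 2.54, 3.73, 4.99 and 3.27 CPM, and its log2 MCS ratio was 0.95 (0.20 to 1.79) at ZT2 and -0.19 (-0.93 to 0.55) at ZT14. *Ccne2* stood between 1.33 and 2.09 CPM.

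The genes of fork protection, checkpoint and repair were all above 0 for MCS against control at ZT14, 6 of 6, with a median log2 ratio of 0.70. The interval lay below no change for 0 members (18.9% of all genes) and above it for 2 (18.7%). These were *Timeless* and *Tipin*, whose products form a complex that stabilises the fork. *Tipin*, the most read of the group, stood at 5.31 CPM in control at ZT2, 4.17 CPM in control at ZT14, 5.92 CPM in the MCS library at ZT2 and 7.16 CPM in that at ZT14, with a log2 ratio at ZT14 of 0.76 (0.19 to 1.39). *Timeless* stood at 5.77, 3.73, 4.41 and 6.03 CPM, with a log2 ratio at ZT14 of 0.68 (0.06 to 1.35). Control at ZT14 was the lowest library for both.

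*Clspn*, the adaptor of the replication checkpoint, resembled *Rrm2* in its order. It stood at 5.31, 2.20, 5.22 and 2.66 CPM, so that both ZT2 libraries were high. The log2 ratio of ZT2 to ZT14 was 1.24 (0.49 to 2.11) in control and 0.95 (0.25 to 1.73) in MCS. *Chek1*, *Blm* and *Exo1* had log2 MCS ratios at ZT14 of 0.82, 0.55 and 0.71, all with intervals that included no change.

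The members were set beside lists of related genes, each described by its counts and median only. Over all genes, the interval for MCS against control at ZT14 lay above no change for 18.7% and below it for 18.9%. In the list of other replication factors, 6 of 29 genes past the minimum had an interval above no change for MCS against control at ZT14 and 4 below, a share near that of all genes above and under it below, with a median log2 ratio of 0.16. The highest was *Ticrr*, an origin firing factor, with 1.43 CPM against 2.97 CPM for MCS and a log2 ratio of 1.0 (0.06 to 2.12). The lowest was *Orc5*, at 21.0 and 15.4 CPM, with a log2 ratio of -0.44 (-0.76 to -0.13). The 4 genes below were *Orc2*, *Orc3*, *Orc4* and *Orc5*, all subunits of the origin recognition complex, which do not share the order of *Orc1* and *Orc6*.

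Of 20 other nucleotide supply genes, 8 had an interval above no change (18.7% of all genes) and 1 below (18.9%) at ZT14, with a median log2 ratio of 0.15. *Nme2*, a nucleoside diphosphate kinase, was highest at 0.86 (0.73 to 1.0), and *Rrm2b*, the reductase subunit of resting cells, was lowest at -0.38 (-0.64 to -0.12). *Samhd1*, which breaks down deoxynucleotides in macrophages, stood at 447 CPM in control at ZT2, 423 CPM in control at ZT14, 464 CPM in the MCS library at ZT2 and 452 CPM in that at ZT14.

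Among G1 cyclins, pocket proteins and inhibitors, 8 of 26 had an interval above no change (18.7% of all genes) and 3 below (18.9%) at ZT14, with a median log2 ratio of 0.19. *Rb1*, the pocket protein that restrains E2F, was lowest, with 136 CPM against 89.4 CPM for MCS, and its log2 ratio was -0.61 (-0.73 to -0.48). The highest was *E2f8*, an E2F repressor made in cycling cells, with a log2 ratio of 0.78 (0.19 to 1.42). Also among the 8 above were the cyclin genes *Ccnd1* at 0.38 (0.25 to 0.50), *Ccnd2* at 0.51 (0.42 to 0.60) and *Ccnd3* at 0.27 (0.16 to 0.39). *Cdkn1b*, a brake on G1 kinases, was at -0.20 (-0.38 to -0.01), and *E2f4*, the E2F factor of resting cells, was at -0.19 (-0.37 to -0.01). *Myc* was at -0.07 (-0.19 to 0.04). *Cdkn1a*, another brake, stood at 46.9, 26.8, 40.5 and 32.2 CPM and was lowest in control at ZT14.

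The mitosis list had a higher median than the members. All 20 of its genes were above 0 for MCS against control at ZT14, 12 of 20 with an interval above no change (18.7% of all genes) and 0 below (18.9%), and the median log2 ratio was 0.78. In control, ZT2 was above ZT14 for all 20, with 14 intervals above no change (13.6% of all genes) and a median of 0.86. The control library at ZT14 was the lowest for 19 of the 20 (23% of all genes). *Bub1b*, a spindle checkpoint kinase, was highest at 1.49 (0.62 to 2.58), and *Bub1* was lowest at 0.24 (-0.83 to 1.38). *Mki67*, the common marker of cycling cells, stood at 83.4 CPM in control at ZT2, 48.0 CPM in control at ZT14, 86.3 CPM in the MCS library at ZT2 and 77.6 CPM in that at ZT14.

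The homologous recombination genes had 2 of 11 intervals above no change, near the 18.7% of all genes, and 0 below (18.9%) at ZT14, with a median log2 ratio of 0.26. *Brca1* was lowest at -0.06 (-0.82 to 0.70). In control, the median log2 ratio of ZT2 to ZT14 was 0.70.

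The replication-dependent histones, whose transcripts are made in S phase, summed to 962 CPM in control at ZT2, 677 CPM in control at ZT14, 865 CPM in the MCS library at ZT2 and 978 CPM in that at ZT14. Of 63 genes, 35 had an interval above no change (18.7% of all genes) for MCS against control at ZT14 and 3 below (18.9%), with a median log2 ratio of 0.54. At ZT2, 6 of 62 had an interval above (11.5% of all genes) and 17 below (11%), with a median of -0.19. Many of these genes are near copies of each other and their single values are uncertain.

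**Figure D4:**
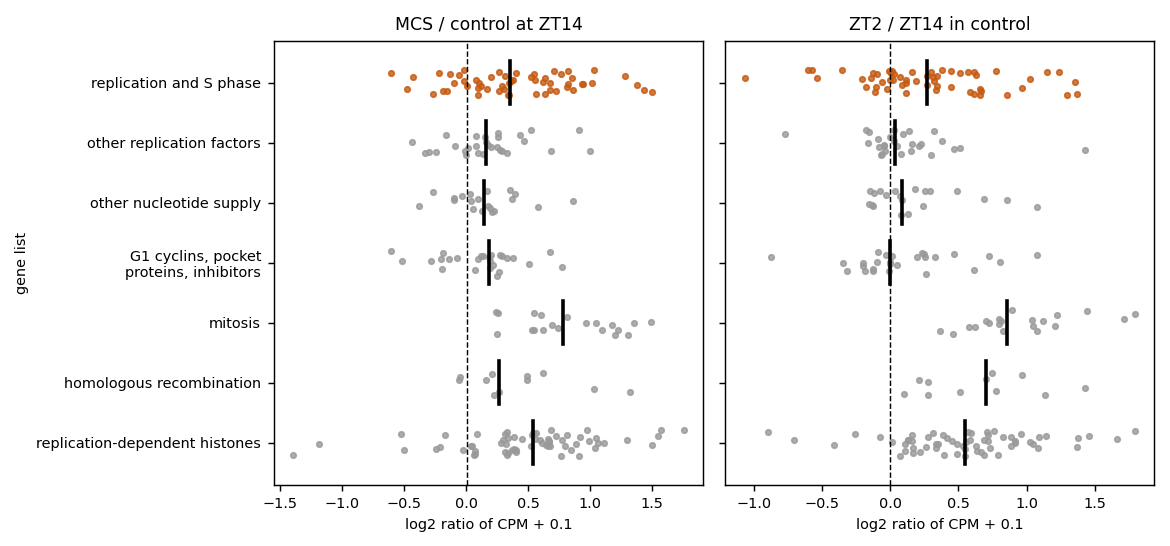
Log2 ratio of CPM + 0.1 (horizontal axes) for the genes past the minimum in each list (vertical axis), for MCS against control at ZT14 on the left and for ZT2 against ZT14 in control on the right. Points are genes, black bars are list medians and the dashed line is the median of all genes; the members' bar lies at 0.35 and 0.27, and the mitosis bar at 0.78 and 0.86.

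Markers of macrophages and of other cells that a sort of peritoneal cells could hold were summed in 11 lists, the 8 macrophage genes given above among them. By summed CPM, the control library at ZT14 was the lowest of the 4 for 3 of them. These were T and natural killer cells, myeloid progenitors, and mesothelial cells and fibroblasts. By gene past the minimum, it was lowest for 8 of 9, 1 of 6 and 7 of 9 in that order (23% of all genes). The 7 myeloid progenitor genes summed to 148 CPM in control at ZT2, 97.4 CPM in control at ZT14, 205 CPM in the MCS library at ZT2 and 115 CPM in that at ZT14. By gene, 4 of the 6 progenitor genes past the minimum were lowest in MCS at ZT14 (31% of all genes). *Mpo* and *Elane* were both at 0 in MCS at ZT14, and 1 of them was at 0 in control at ZT2. The 9 T and natural killer genes in the table summed to 54.6, 31.6, 67.7 and 39.7 CPM, and the 11 mesothelial and fibroblast genes to 26.1, 9.01, 34.6 and 14.8 CPM, with *Pdgfra* at 0 in 1 or more libraries.

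Other marker lists had another order. The 10 erythroid genes in the table summed to 23.2, 27.1, 59.5 and 136 CPM, highest in MCS at ZT14, with *Hbb-bt*, *Hba-a2*, *Hbb-b2* and *Klf1* at 0 in 1 or more libraries. The 6 B cell genes in the table summed to between 965 and 1400 CPM, highest in control at ZT14 and lowest in MCS at ZT14. The 8 neutrophil genes in the table summed to between 19.4 and 111 CPM, highest in MCS at ZT2, with *Camp* and *Ngp* at 0 in MCS at ZT14. The mast cell and eosinophil genes summed to 1722, 1122, 2116 and 943 CPM. The dendritic cell genes summed to between 42.5 and 82.5 CPM. The genes of large peritoneal macrophages summed to between 9407 and 11735 CPM and those of small ones and monocytes to between 3751 and 4736 CPM. The part of these cells in the members' differences was not tested.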

How the data were processed

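The authors sorted peritoneal macrophages and sequenced rRNA-depleted, directional libraries as paired-end reads of 150 nt. They trimmed the reads with Trimmomatic 0.38 and counted them with RSEM 1.3.0 and Bowtie 2, on mm10 per the labels. The authors deposited 1 table of CPM normalized by edgeR. The annotation, the strand setting and the expression filter are not given in the sources used here. RSEM estimates need not be whole, so recovered reads include any rounding by the authors.

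Here each column was divided by its smallest value above 0 to recover reads, and 100% of values came out whole. The deposited scaling equalled edgeR's TMM factors of these reads. Log2 ratios used a pseudocount of 0.1 CPM, which understates the change of low genes. Their 95% intervals are exact conditional binomial intervals of the reads without the pseudocount, and intervals of a level are Poisson. The minimum was a log2 mean CPM above 0 over the libraries compared. A count of 0 allows up to 3 reads, worth between 0.307 and 0.348 CPM. Scripts were tested on simulated data.

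The members and all lists were chosen with earlier results of these data known. The rule for named genes took, among members with an interval off no change, the 8 highest and 8 lowest ratios at ZT14 and 4 and 4 in other comparisons, the most read member of each role, members under 1 CPM, and from each related list the highest and lowest ratio with 7 fixed genes. Some genes that this rule takes from the related lists are not reported here. Other members and genes, and the summed complexes, were chosen after their values were seen. Gene models and transcripts were GENCODE for GRCm38, and alike transcripts were found with blastn 2.17.0 at 95% identity over 150 bases or more. Of the members, 10 share exon bases with an opposite-strand gene of the table. A pseudogene transcript is alike to 9 members, among them *Cdc6* over 1528 bases and *Rfc5* over 1020 bases. Software was Python 3.11.15, numpy 2.4.6, pandas 2.3.3, scipy 1.17.1, matplotlib 3.10.9, R 4.3.3 and edgeR 4.0.16. The alternatives were other pseudocounts, a 99% interval, other minimums, thresholds and scalings.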

Additional observations from a re-analysis of the deposited data

Results flagged for a closer look

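For 3 members the MCS ratio lay on opposite sides of no change at the 2 times, below it at ZT2 and above it at ZT14, with counting intervals that excluded no change at both. The log2 MCS ratio at ZT14 minus that at ZT2 was 0.458 for *Rpa1*, 1.11 for *Rpa2* and 0.764 for *Pola1*. Each condition had 1 library, so the difference was not tested.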

How the results depend on the processing

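Of 76 alternative values, 57 were counts within 1.5 times the main count or medians within a tolerance of the main one, and 19 moved further. The tolerance was the half-width of the counting interval of the members' summed reads, about 0.04 on the log2 scale. It is not the error of a median. The 57 include the TMM setting, which equals the deposited scaling, so its values could not move. The all-gene medians lay between -0.003 and 0.005, so setting them to 0 could move little. The share of all genes was computed at the main settings only, so none stands beside the counts of members in this section. With 99% intervals, 14 members lay above no change and 2 below for MCS at ZT14, in place of 21 and 3. At ZT2 there were 2 and 2, in place of 3 and 3. For time there were 11 and 1 in control, in place of 16 and 2, and 3 and 5 in MCS, in place of 4 and 8. All 24 alternative medians kept the sign of the main value, those of the TMM setting among them by construction. They ranged from 0.30 to 0.36 for MCS against control at ZT14, from 0.0016 to 0.012 at ZT2, from 0.16 to 0.28 for ZT2 against ZT14 in control and from -0.089 to -0.072 in MCS.

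Counts past the fold criterion moved most. With a pseudocount of 1 CPM, they were 2 members for MCS at ZT14, 0 at ZT2 and 2 for time in control, whose median log2 ratio was 0.21. With a minimum log2 mean of 3, they were 1 at ZT14, 0 at ZT2, 2 for time in control and 0 in MCS. That minimum left 26 members at ZT14, 15 of them with an interval off no change. The median of the 26 was 0.30. The same minimum gave a median of 0.16 for time in control. A threshold of 0.5 gave 26, 7, 22 and 13 members, and a threshold of 2 gave 0, 0, 0 and 0, for MCS at ZT14, MCS at ZT2, time in control and time in MCS. The cause was not tested.

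An edgeR quasi-likelihood test on the recovered reads was chosen after seeing the data. It had additive terms for MCS and time, so takes MCS to act alike at both times, and left 1 residual degree of freedom. For MCS it called 24 of 12404 genes at an adjusted p under 0.05 and 304 at an unadjusted p under 0.05. For time it called 295 of the 12404 genes, with 1287 at an unadjusted p under 0.05. Of 56 members tested, it called 0 for MCS and 1 for time, *E2f2*, with 5 and 4 at an unadjusted p under 0.05. No paired analysis was possible because each group has 1 library and the labels carry no replicate numbers, and no replicate could be left out. Depth limits 5 members with fewer than 10 reads in a library.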
